A study of Mus musculus with 6 samples.

Results

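Knockdown of HDAC2 in cultured mouse neurons was compared with control cultures over the 13569 genes that the authors' deposited table marks as testable, of 23235 genes in that table, with 2 libraries in each group. Every testable gene belongs to the comparison, while the gene lists that describe it were chosen with earlier results of these data known. Genes of glial cells and extracellular matrix were often higher after the knockdown (17 of 31 tested myelin genes, 18 of 38 collagen and basement membrane genes, against 10.2% of all tested genes), and genes induced by neuronal activity were often lower (14 of 30 immediate early transcription factors, against 3.61%). All cultures were primary cortical and hippocampal neurons from mouse embryos at embryonic day 15, grown for 17 days. Every group received 1 uM cytosine arabinoside (AraC), which kills dividing cells, on day 5 and lentivirus on day 12. The groups were labelled control, HDAC2 shRNAs (short hairpin RNAs) and Sp3 shRNAs. The sources used here do not give the content of the control virus, the mouse strain or the number of hairpins. The series addresses whether HDAC2 and the transcription factor Sp3 act together on one set of genes, and the Sp3 knockdown is used below only to show where the HDAC2 knockdown differed from it.

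HDAC2 is a class I histone deacetylase, an enzyme that removes acetyl groups from histone tails. It has no DNA binding domain of its own and works as a catalytic subunit of the NuRD, Sin3 and CoREST corepressor complexes, usually side by side with its close relative HDAC1. In the brain it is best known for restraining synaptic plasticity and memory genes in neurons, and for a role with HDAC1 in the development of oligodendrocytes, the cells that make myelin.

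The values are FPKM (fragments mapped to a gene, scaled to its transcript length and to the mapped total), which the authors computed as 1 value per group from its 2 libraries, so a spread between libraries cannot be shown. A change is given below as the log2 ratio of HDAC2 knockdown to control after subtracting the median ratio of expressed genes, here called the log2 change, with the standard error implied by the authors' test. Pairs of FPKM values run from control to HDAC2 knockdown. Whether the libraries of a group are separate cultures is not in the labels, and the p-values may then cover technical spread only. FPKM keeps no read count, and the depth of the libraries is unknown.

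The targeted gene was lower in the libraries labelled with HDAC2 hairpins. Hdac2 (chromosome 10, 36694349 to 36721694 in mm9) measured 49.4 FPKM in control, 12.3 in HDAC2 knockdown and 38.8 in Sp3 knockdown. Its log2 change was -2.32 ± 0.25 (adjusted p of 5.71e-18), which is 5.0-fold lower relative to the median gene. The other class I deacetylases did not pass the test. Hdac1 measured 7.74 to 11.1 FPKM (log2 change 0.21 ± 0.25), Hdac3 60.5 to 58.9 FPKM (-0.35 ± 0.28) and Hdac8 3.31 to 4.12 FPKM (0.0028 ± 0.33). Of 7 other deacetylases, Hdac10 rose from 4.26 to 8.6 FPKM (log2 change 0.70 ± 0.18). Hdac6, a cytoplasmic tubulin deacetylase, measured 19.2 to 16.3 FPKM and was lower relative to the median gene only (-0.56 ± 0.10, adjusted p of 1.34e-06), and below its level in Sp3 knockdown (difference -0.75 ± 0.13, 8.18e-07).

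Single subunits of the corepressor complexes changed too. In NuRD, the histone binding subunit gene Rbbp7 fell from 65 to 37 FPKM (log2 change -1.13 ± 0.26), and its close relative Rbbp4 measured 23.5 to 21.6 FPKM (-0.44 ± 0.25, adjusted p of 0.242). The NuRD genes Gatad2a, a scaffold (5.55 to 13.2 FPKM, log2 change 0.94 ± 0.15), and Mbd2, which binds methylated DNA (6.39 to 15.6 FPKM, 0.97 ± 0.27), rose. In CoREST, the corepressor gene Rcor2 rose from 6.81 to 16.2 FPKM (0.93 ± 0.25), and Rreb1, a zinc finger factor, fell from 5.31 to 2.61 FPKM (-1.34 ± 0.15). Sap18, a Sin3 subunit, fell from 65.5 to 21.8 FPKM (-1.9 ± 0.26) and stood at 11.9 FPKM in Sp3 knockdown (log2 difference between the knockdowns 0.42 ± 0.30, adjusted p of 0.424). Counts over the complexes were small: 2 higher and 1 lower of 13 tested in NuRD, and 1 higher and 1 lower each of 14 in Sin3 and of 11 in CoREST.

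Over all genes, the median ratio of expressed genes (1 FPKM or more in either group) lay 0.32 above 0 on the log2 scale, a 1.24-fold shift that is removed from every log2 change. Of 13481 genes with an error, 1380 were higher (10.2%) and 1023 lower (7.59%) at an adjusted p under 0.05. Without the shift removed, the authors' deposited table called 3342 genes higher (24.6% of 13569) and 489 lower (3.6%), so the share of higher calls was 87.2% there and 57.4% here. A scaling difference and a true rise of most genes cannot be told apart. The verbs rose and fell below are therefore kept for genes past both tests, 1380 higher (10.2%) and 486 lower (3.61%), and these 2 shares are the background for each count of genes. For 537 genes, lower only relative to the median gene, no verb is used. The authors' error is taken as known here. With a t distribution of 2 degrees of freedom, the residual degrees of freedom of 2 groups of 2 libraries, 0 genes passed at an adjusted p under 0.05 (smallest 0.660), and 501 were higher and 372 lower at an unadjusted p under 0.05.

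Changes of at least 2-fold relative to the median gene were found for 686 of the 1380 higher genes and for 413 of the 1023 lower genes of the centred test. The median size of the log2 change was 0.99 among genes that rose and 1.22 among genes that fell, but the call by both tests leaves out small falls and no small rises, so these sizes cannot be compared. The genes that rose had a median of 5.55 FPKM in control and 13.6 in HDAC2 knockdown, and the genes that fell 16.8 and 9.74. Control FPKM is the denominator of the ratio that selected these genes. Lower control values among rises were therefore favoured in advance, and the order of the control medians is no finding. Between 5 and 20 FPKM, 11.1% of genes rose and 3.79% fell, and between 20 and 100 FPKM 7.71% rose and 4.58% fell. The median standard error was 0.57 below 1 FPKM, 0.25 between 5 and 100 FPKM, 0.35 between 100 and 500 FPKM and 0.65 at 500 FPKM or more, so errors were wide for both the weakest and the most abundant genes.

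**Figure D1:**
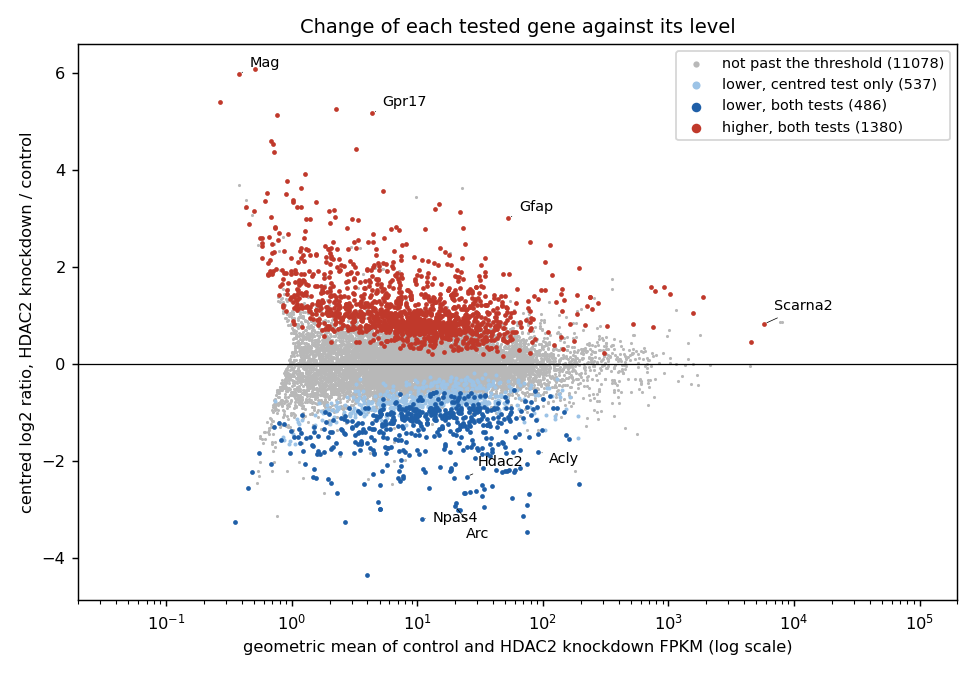
Each point is 1 of 13481 tested genes, plotted by the geometric mean of its control and HDAC2 knockdown FPKM (log axis) and its log2 change (centred ratio). Red points rose and dark blue points fell by both tests, pale blue points were lower only relative to the median gene. Hdac2, Arc and Npas4 lie among the deepest falls, and Gpr17 and Mag among the largest rises.

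Many genes of the oligodendrocyte lineage rose. This lineage runs from precursors marked by Pdgfra and Sox10, through a short premyelinating stage marked by Gpr17, Enpp6 and Bcas1, to myelinating cells. Of 17 tested genes of the precursor list, 9 rose and 0 fell, with a median log2 change of 0.86. This list also holds the premyelinating markers Gpr17 and Bcas1, which are among those that rose. The precursor growth factor receptor gene Pdgfra rose from 43.8 to 98.8 FPKM (log2 change 0.86 ± 0.30). Sox10, the transcription factor that sets the lineage, rose from 4.21 to 12.8 FPKM (1.29 ± 0.25), and Sox6, which is expressed in precursors, from 9.86 to 22.2 FPKM (0.86 ± 0.18). Defining precursor genes that did not pass were Olig2 at 46.1 to 85.7 FPKM (0.58 ± 0.30), Olig1 at 95.1 to 93.1 FPKM (-0.35 ± 0.28) and Cspg4, which encodes the NG2 proteoglycan, at 13.7 to 21.5 FPKM (0.33 ± 0.30). Precursor genes were expressed in control cultures too, with Olig1 and Pdgfra at 95.1 and 43.8 FPKM. In RNA of whole cultures, a change in the number of cells of a type and in RNA per cell cannot be told apart.

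Genes of the premyelinating stage rose from very low levels. Gpr17, a receptor made for a short time before myelination, went from 0.649 to 29.1 FPKM (log2 change 5.17 ± 0.33, adjusted p of 2.17e-50). Bcas1, expressed in cells that begin to myelinate, rose from 1.99 to 15 FPKM (2.6 ± 0.26). Enpp6, a choline phosphodiesterase of newly formed oligodendrocytes, rose from 0.0373 to 1.94 FPKM (5.39 ± 1.2), with a control level too low for a firm fold. The secreted synaptic protein gene C1ql1, also a precursor marker, rose from 3.07 to 17.9 FPKM (2.23 ± 0.32), and the matrix gene Matn4 from 5.73 to 26.2 FPKM (1.88 ± 0.15).

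Of 43 premyelinating and myelin genes 31 could be tested, 17 rose and 0 fell (median log2 change 1.02). Mbp, a main protein of compact myelin, rose from 8.17 to 27.8 FPKM (1.45 ± 0.12). Cnp, an enzyme of the myelin cytoplasm, rose from 10.2 to 34 FPKM (1.42 ± 0.15), and Cldn11, a tight junction protein between myelin layers, from 0.625 to 16.6 FPKM (4.42 ± 0.46). The adhesion protein gene Mag and the proteolipid gene Mal rose from 0.0428 to 3.35 and from 0.115 to 5.02 FPKM. Ugt8a and Gal3st1, the enzymes that make galactolipids of myelin, rose from 2.39 to 9.85 FPKM (1.73 ± 0.27) and from 0.954 to 4.1 FPKM (1.79 ± 0.40). Fa2h, which adds a hydroxyl group to the same lipids, is listed at 0 in control and at 1.56 FPKM in HDAC2 knockdown, a rise by the authors' deposited table (q = 3.86e-05). Markers of the latest stage were near the floor in both groups: Mog measured 0.755 to 1.67 FPKM (0.83 ± 0.50, adjusted p of 0.285), Mobp 0.0505 to 0.0843 FPKM and Ermn 0.514 to 0.616 FPKM, and Opalin is listed at 0 in both.

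Many oligodendrocyte genes stood higher in HDAC2 than in Sp3 knockdown, which was set against the same control libraries. Sox10 was at 1.52 FPKM in Sp3 knockdown (log2 difference HDAC2 minus Sp3 2.63 ± 0.35, adjusted p of 2.11e-11), Bcas1 at 0.846 FPKM (3.7 ± 0.42, 6.5e-16) and Cnp at 4.22 FPKM (2.56 ± 0.22, 8.45e-28). By the test of the difference, 14 of 25 premyelinating and myelin genes and 11 of 16 genes of the precursor list were above Sp3 knockdown and 0 below. Over all genes 14.7% passed that test in either direction.

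Many astrocyte genes rose as well. Of 54 tested, 21 rose and 1 fell, with a median log2 change of 0.75 and 47 members above 0. Gfap, the intermediate filament protein raised in reactive astrocytes, went from 16.7 to 167 FPKM (log2 change 3.01 ± 0.37, adjusted p of 6.68e-14). Cd44, the hyaluronan receptor that marks a subset of astrocytes, rose from 4.1 to 46.8 FPKM (3.2 ± 0.29), and the water channel gene Aqp4 of astrocyte endfeet from 7.44 to 43.7 FPKM (2.24 ± 0.27). The calcium binding protein gene S100b rose from 2.77 to 14.9 FPKM (2.11 ± 0.29), and Gja1, the gap junction protein connexin 43, from 22.3 to 74.4 FPKM (1.42 ± 0.29). Aldh1l1, a folate enzyme used as a general astrocyte marker, rose from 28.1 to 79.8 FPKM (1.19 ± 0.33).

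Several abundant astrocyte genes had values above control but did not pass. Slc1a3, a glutamate transporter, measured 173 to 721 FPKM (1.74 ± 1.46, adjusted p of 0.49), Glul, glutamine synthetase, 143 to 455 FPKM (1.35 ± 0.73, 0.211), and Apoe, the lipid carrier, 711 to 1313 FPKM (0.57 ± 1.03, 0.793). The other main glutamate transporter gene Slc1a2 measured 176 to 289.6 FPKM (0.41 ± 0.95) and the potassium channel gene Kcnj10 25.6 to 39 FPKM (0.30 ± 0.30). The single astrocyte list member that fell was Thbs1, a secreted synapse-promoting protein, from 13.5 to 8.03 FPKM (-1.06 ± 0.22). Its relative Thbs2 rose from 0.143 to 3.68 FPKM (4.37 ± 0.52), with a control level too low for a firm fold. With 1 FPKM added to both groups, the log2 change of Thbs2 was 1.75. By the test of the difference, 23 of 51 astrocyte genes were above Sp3 knockdown and 1 below. The share of all genes passing that test in either direction was 14.7%. Gfap stood at 9.13 FPKM in Sp3 knockdown, under its control level (difference 3.74 ± 0.39, adjusted p of 5.32e-19).

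**Figure D2:**
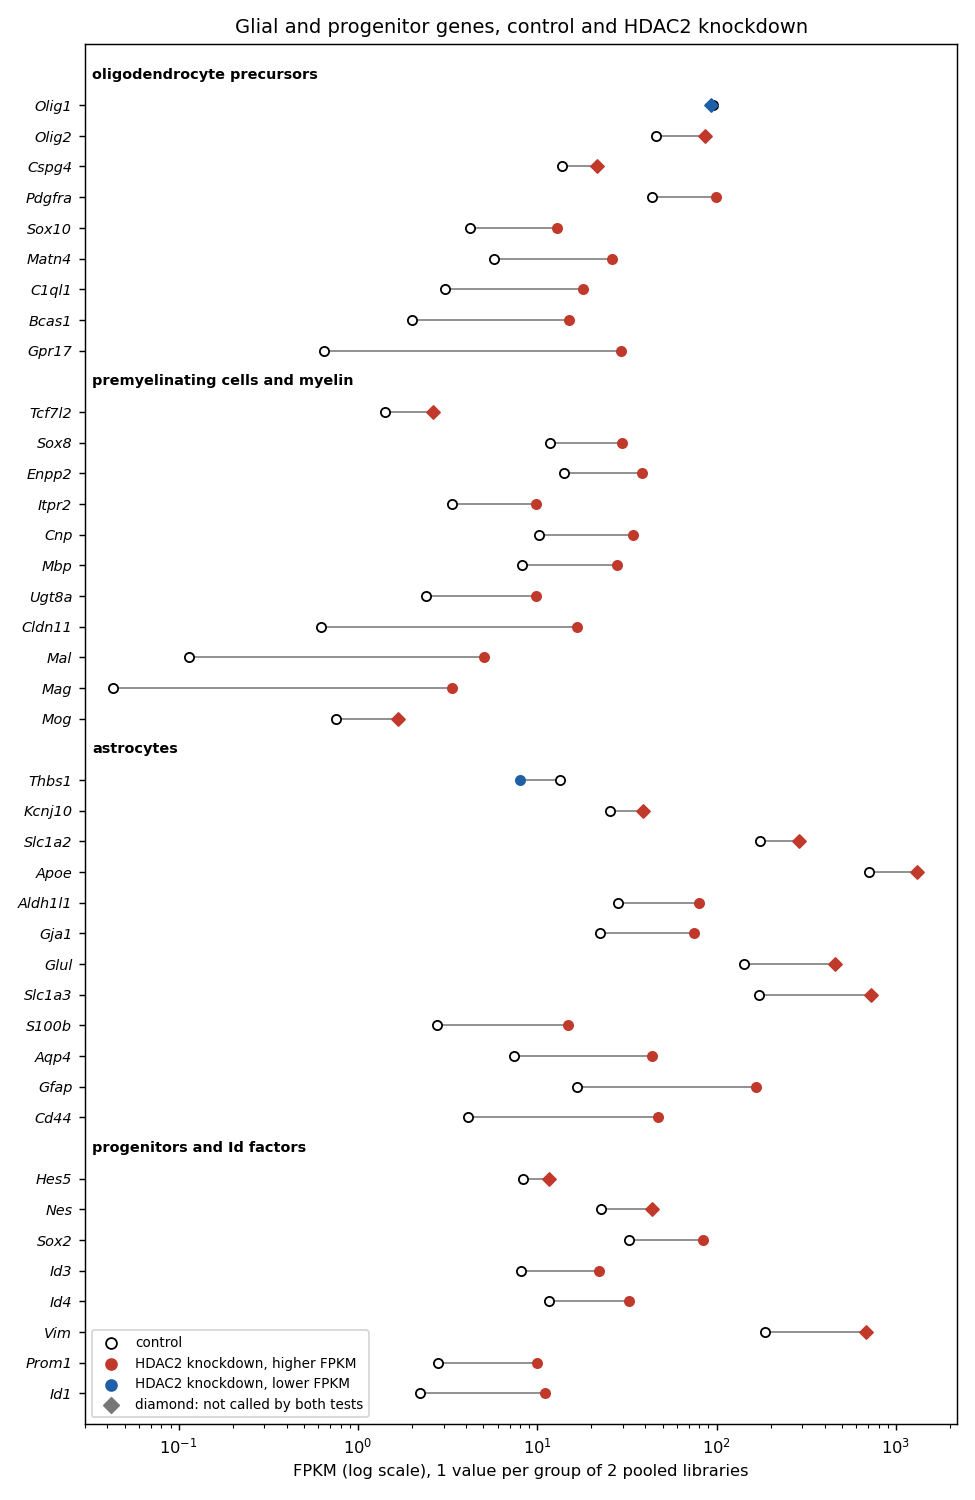
FPKM (log axis) in control (open circles) and HDAC2 knockdown (filled) for 40 glial and progenitor genes, 1 value per group. Diamonds mark genes not called by both tests. Filled symbols lie to the right of control for every gene drawn but Olig1 and Thbs1, and the distance is widest for Mag, Gpr17 and Mal.

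Progenitor genes rose in part. Of 19 tested progenitor genes 6 rose and 0 fell (median log2 change 0.68). Sox2, a transcription factor of stem cells and glia, rose from 32.3 to 84.1 FPKM (1.06 ± 0.26), and Prom1, a membrane protein of progenitors, from 2.79 to 9.89 FPKM (1.51 ± 0.17). Neurod1, a proneural factor, rose too, from 2.65 to 9.88 FPKM (1.58 ± 0.30), although its list mate Neurog2 (1.02 to 1.35 FPKM, 0.091 ± 0.44) did not pass.

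Notch, Wnt, BMP and hedgehog signals act in neural development, and some of them can hold neural cells in an immature or glial state. Of 46 tested genes of these pathways 16 rose and 1 fell. All 4 Id genes rose, which encode dominant negative partners of neurogenic factors and respond to BMP. Id1 went from 2.21 to 11.1 FPKM (log2 change 2.01 ± 0.39), Id2 from 28.2 to 60.5 FPKM (0.79 ± 0.23), Id3 from 8.13 to 22.1 FPKM (1.13 ± 0.27) and Id4 from 11.6 to 32.6 FPKM (1.17 ± 0.23). Among Notch genes, the ligand gene Jag1 rose from 3.58 to 15.5 FPKM (1.8 ± 0.25), the receptor gene Notch3 from 3.84 to 8.21 FPKM (0.78 ± 0.24), and the targets Hey1 and Hey2 from 13.7 to 28.9 FPKM (0.76 ± 0.24) and from 1.25 to 3.76 FPKM (1.27 ± 0.37). The targets Hes1 (7.1 to 14.1 FPKM, 0.68 ± 0.28, adjusted p of 0.0701) and Hes5 (8.35 to 11.7 FPKM, 0.17 ± 0.27, 0.762) did not pass. Smo, the hedgehog signal transducer, rose from 2.97 to 9.46 FPKM (1.36 ± 0.24), and Smad7, an inhibitor of BMP and TGF-beta signals, fell from 6.4 to 4.15 FPKM (-0.94 ± 0.26).

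Several defining markers of other cell types were at or near 0, but members of these lists also rose. Of 20 microglia and macrophage genes 3 were expressed enough to test and none passed, with Tmem119, C1qc, Tyrobp and Ctss listed at 0 in both groups. The summed FPKM of the whole microglia list was 21.4 in control and 28.5 in HDAC2 knockdown. Of the endothelial genes Cldn5, Cdh5 and Pecam1 were under 1 FPKM in both groups, and of the fibroblast genes so were Col1a1, Col1a2 and Col3a1. In the endothelial list Kdr (0.551 to 1.46 FPKM) and Ocln (1.96 to 5.24 FPKM) rose, and in the pericyte list Mcam (1.17 to 5.9 FPKM), Foxc1 (0.492 to 2.33 FPKM) and Rgs5 (0.416 to 1.74 FPKM). Dcn, a proteoglycan of fibroblasts in the pericyte and fibroblast list, measured 26.6 to 38.4 FPKM (0.21 ± 0.15). Of 7 tested ependymal and choroid plexus genes 3 rose and 0 fell, with Foxj1, the factor of motile cilia, going from 1.35 to 5.44 FPKM (1.7 ± 0.33). Summed FPKM of the whole lists was 51.5 in control and 70.2 in HDAC2 knockdown for endothelial genes, 54.2 and 85.8 for pericyte and fibroblast genes, and 21.4 and 33.7 for ependymal genes. The part of these cells in the results was not tested. Of 9 tested genes of the Schwann cell and neural crest list 6 rose and 1 (Egr2) fell, with a median log2 change of 1.29. The neural crest gene Foxd3 was at or near 0. Central glia share the risers Sox10, Mal and Pmp22, and not every riser of this list is named here.

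None of 36 cell division genes passed both tests, and 2 (Cenpf and Mcm3) were lower relative to the median gene. The proliferation marker Mki67 measured 19.5 to 20.4 FPKM (log2 change -0.25 ± 0.33) and Top2a 33.6 to 35.9 FPKM (-0.22 ± 0.29). The list's median was -0.14, and 0.18 when the shift of the median gene is kept. Of 22 tested pan-neuronal genes only Elavl4 passed, an RNA binding protein that fell from 21.2 to 12.7 FPKM (-1.06 ± 0.1). The list's median was -0.23, on the other side of 0 with the shift kept (0.087). Rbfox3, the neuronal nuclear marker, measured 22.3 to 22.2 FPKM (-0.32 ± 0.19), Tubb3 298 to 261 FPKM (-0.51 ± 0.55) and Snap25 46.9 to 52.2 FPKM (-0.16 ± 0.39). Summed over their lists, pan-neuronal FPKM was 3358 in control and 3155 in HDAC2 knockdown, whereas astrocyte FPKM was 5617 and 11856 and that of premyelinating and myelin genes 248 and 548.

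Genes of glutamatergic and GABAergic neurons changed in both directions. Among 24 glutamatergic genes 5 rose and 2 fell. Slc17a6, a vesicular glutamate transporter, fell from 17.7 to 7.8 FPKM (-1.5 ± 0.24), and the main cortical one, Slc17a7, measured 184 to 275 FPKM (0.26 ± 0.66). The layer markers Rorb (3.56 to 9.06 FPKM, 1.03 ± 0.25), Cux2 (10.5 to 21.7 FPKM, 0.72 ± 0.26) and Etv1 (9.61 to 23.6 FPKM, 0.98 ± 0.11) rose. Among 22 GABAergic genes 4 rose, including the interneuron factor gene Lhx6 (0.912 to 2.33 FPKM) and the calcium buffer gene Calb1 (19.3 to 37.7 FPKM), and 1 fell, Cck. Gad1, a GABA synthesis enzyme, measured 43.9 to 74.3 FPKM (0.45 ± 0.32). The other defining markers were lower relative to the median gene only: Gad2, the second synthesis enzyme, measured 10.8 to 7.72 FPKM (-0.80 ± 0.24, adjusted p of 0.00645) and Slc32a1, the vesicular GABA transporter, 9.39 to 6.33 FPKM (-0.88 ± 0.26, 0.00709).

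Many extracellular matrix genes rose. Of 38 tested collagen and basement membrane genes 18 rose and 2 fell (median log2 change 0.69). Laminin and fibronectin genes were among them, Lamb2 rising from 5.81 to 21.5 FPKM (1.57 ± 0.26) and Fn1 from 8.79 to 25.8 FPKM (1.24 ± 0.33). So were Col4a5, a basement membrane collagen (3.02 to 10.4 FPKM, 1.46 ± 0.24), Fbln2, a basement membrane linker (2.46 to 12.7 FPKM, 2.05 ± 0.25), and Col5a3, a fibrillar collagen (0.592 to 6.51 FPKM, 3.14 ± 0.32).

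Of 35 proteoglycan, matricellular and protease genes 14 rose and 5 fell. Tnc, a glycoprotein of glial matrix, rose from 14.5 to 82.1 FPKM (2.18 ± 0.50), Bcan, a brain proteoglycan made by glia, from 55.3 to 198 FPKM (1.52 ± 0.47), and Mmp14, a membrane matrix protease, from 14.6 to 51.5 FPKM (1.5 ± 0.26). Acan, the main proteoglycan of the perineuronal nets around neurons, instead fell from 10.8 to 4.53 FPKM (-1.57 ± 0.25), as did the hyaluronan synthase gene Has3, from 2.72 to 0.977 FPKM (-1.79 ± 0.32), while its relative Has2 rose from 0.281 to 1.71 FPKM (2.29 ± 0.42). Vcan, a proteoglycan of precursors, could not be tested by the authors and measured 9.71 to 43.9 FPKM. Omd and Loxl2 fell as well, from 133 to 24.4 FPKM and from 64 to 23.7 FPKM, and stood at 12.9 and 7.99 FPKM in Sp3 knockdown.

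Of 36 complement and cytokine genes 18 could be tested, 7 rose and 0 fell. C4b, a complement component, rose from 0.441 to 4.37 FPKM (2.99 ± 0.35), Vcam1, an adhesion molecule of endothelium and astrocytes, from 13.5 to 47.7 FPKM (1.5 ± 0.26), and Osmr, the oncostatin M receptor, from 0.284 to 3.7 FPKM (3.38 ± 0.43). The cytokine genes Il6, Il1b and Tnf were under 1 FPKM in both groups.

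**Figure D3:**
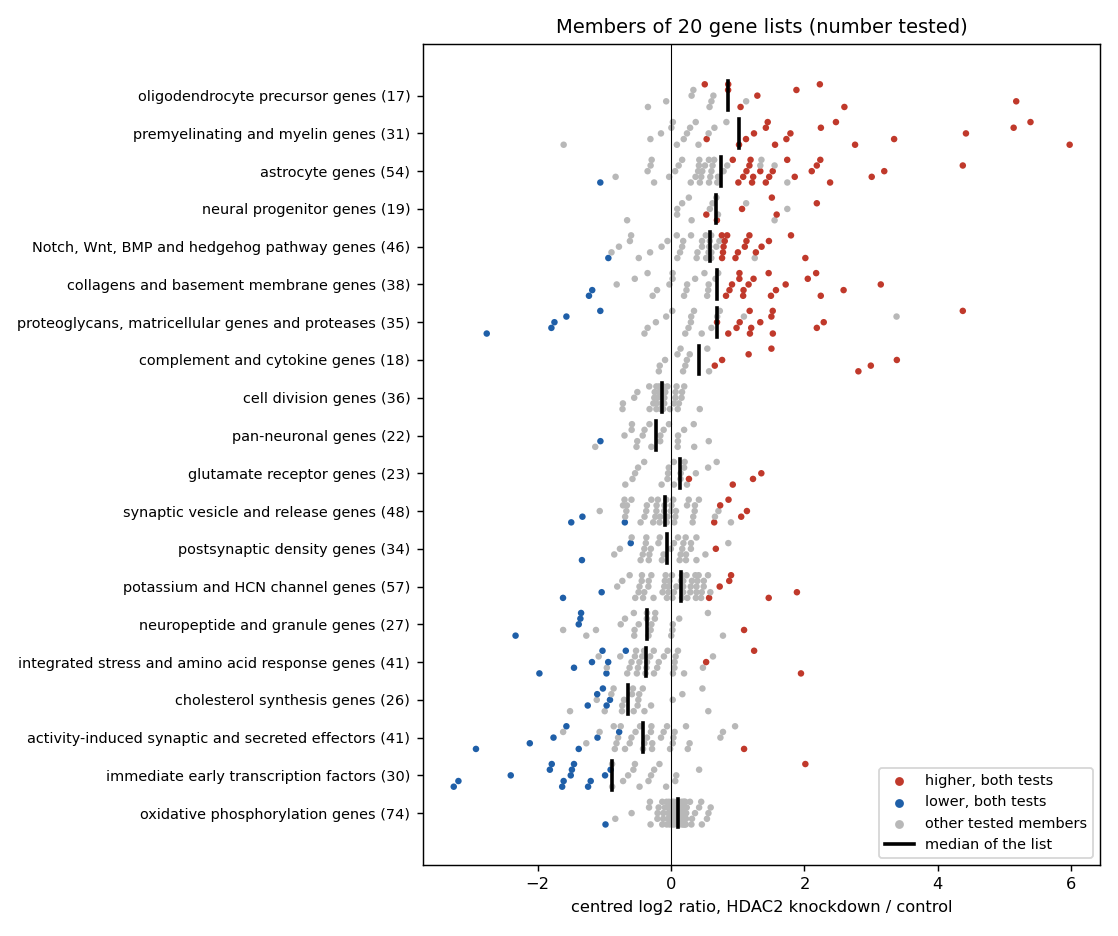
Log2 change (centred ratio) of each tested member of 20 gene lists, with the list's median as a black bar and the number tested in brackets. Red members rose and blue members fell by both tests. Glial, progenitor and matrix lists lie to the right of 0, and immediate early, effector and cholesterol lists to the left, while synaptic and channel lists straddle it.

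Many genes induced by neuronal activity fell. Synaptic input raises calcium in the nucleus, which activates CREB, SRF and MEF2 and switches on immediate early transcription factors within minutes, followed by effector genes that act at synapses. Of 30 tested immediate early transcription factor genes 14 fell and 1 (Id1) rose, and 26 had a log2 change below 0 (median -0.88, or -0.57 with the shift kept). Fosb, an AP-1 subunit, fell from 7.32 to 0.953 FPKM (log2 change -3.26 ± 0.36, adjusted p of 2.29e-17), and Npas4, the neuron-specific factor that is induced by calcium alone, from 29.4 to 4.02 FPKM (-3.19 ± 0.26, adjusted p of 2.05e-30).

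Falls were found in 3 transcription factor families. In the AP-1 family Fos fell from 59.8 to 32.3 FPKM (-1.2 ± 0.23) and Junb from 66.7 to 23.6 FPKM (-1.82 ± 0.23), whereas Jun measured 50.3 to 43 FPKM (-0.54 ± 0.26, adjusted p of 0.141) and Fosl2 25.7 to 25.3 FPKM (-0.34 ± 0.28). All 4 Egr zinc finger genes fell: Egr1 from 74.1 to 30.2 FPKM (-1.61 ± 0.26), Egr2 from 15.1 to 3.56 FPKM (-2.4 ± 0.26), Egr3 from 20.3 to 9.03 FPKM (-1.49 ± 0.26) and Egr4 from 19 to 6.85 FPKM (-1.79 ± 0.27). In the orphan nuclear receptor family Nr4a1 fell from 34 to 13.7 FPKM (-1.63 ± 0.24) and Nr4a2 from 2.33 to 1.46 FPKM (-0.99 ± 0.24). Srf itself, which binds the serum response element of many of these genes, fell from 9.91 to 6.59 FPKM (-0.91 ± 0.24), and Creb1 measured 7.12 to 9.66 FPKM (0.12 ± 0.11, adjusted p of 0.545).

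Promoters of these genes are known to hold the cyclic AMP response element (CRE), the binding sequence of CREB, so the windows of 3 factor genes are shown. Each line is the 250 bases before the RefSeq start site, 5′ to 3′ on the gene's strand in GRCm38.p6, with the core TGACG of the element, on either strand, in capitals. The positions are chr12:85473640-85473889 for Fos (plus strand), chr19:4989972-4990221 for Npas4 (minus strand) and chr15:101266596-101266845 for Nr4a1 (plus strand). GRCm38.p6 differs from the mm9 build of the expression table, so positions in these builds cannot be set side by side.
Fos: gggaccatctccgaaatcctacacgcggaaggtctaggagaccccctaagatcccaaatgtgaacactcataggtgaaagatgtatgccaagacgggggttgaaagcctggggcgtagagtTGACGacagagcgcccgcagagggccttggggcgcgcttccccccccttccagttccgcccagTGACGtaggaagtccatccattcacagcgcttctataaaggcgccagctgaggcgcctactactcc
Npas4: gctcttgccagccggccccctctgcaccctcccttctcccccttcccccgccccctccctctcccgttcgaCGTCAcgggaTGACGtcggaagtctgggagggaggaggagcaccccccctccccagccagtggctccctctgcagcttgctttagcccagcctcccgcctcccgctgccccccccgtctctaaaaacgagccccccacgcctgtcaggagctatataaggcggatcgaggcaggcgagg
Nr4a1: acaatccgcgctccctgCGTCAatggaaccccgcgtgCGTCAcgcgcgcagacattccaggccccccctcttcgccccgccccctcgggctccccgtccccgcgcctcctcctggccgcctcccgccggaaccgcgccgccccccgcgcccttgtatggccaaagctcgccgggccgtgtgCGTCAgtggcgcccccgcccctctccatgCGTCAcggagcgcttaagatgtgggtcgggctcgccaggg
The core was found 2 times in the Fos window, 2 times in that of Npas4 and 4 times in that of Nr4a1. Of the 9375 tested genes with a RefSeq window of 300 bases (250 before to 50 after the start site), 35.3% held TGACG. Of 23 immediate early transcription factor genes with a window 18 did (78.3%), as did 12 of the 12 that fell and have a window. Among all genes that fell the share was 37.3%, and among all that rose 26.5%. A match is only a match of letters and says nothing of binding.

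Effector genes fell in part. Of 41 tested, 7 fell and 1 (Penk) rose, with a median log2 change of -0.42, or -0.10 with the shift kept. Arc, which drives AMPA receptor endocytosis, fell from 49.2 to 8.07 FPKM (-2.92 ± 0.25, adjusted p of 1.57e-29), and Gadd45g, a DNA demethylation and stress protein, from 28.5 to 8.19 FPKM (-2.12 ± 0.30). Bdnf, the neurotrophin of activity-dependent plasticity, fell from 22.8 to 16.6 FPKM (-0.78 ± 0.097), and Ptgs2, which makes prostaglandins, from 3.22 to 1.87 FPKM (-1.1 ± 0.32). Gpr3, a constitutively active receptor that raises cyclic AMP, fell from 5.73 to 2.1 FPKM (-1.76 ± 0.34). Effectors that did not pass include Sgk1 (12.6 to 16.3 FPKM, 0.054 ± 0.11), Gadd45b (7.32 to 9.34 FPKM, 0.035 ± 0.30) and Nptx1 (35.1 to 31.7 FPKM, -0.46 ± 0.30). Among feedback regulators 1 of 22 fell, the phosphatase gene Dusp1, from 26.5 to 10.5 FPKM (-1.65 ± 0.24), and 1 rose, Spry1, from 11.5 to 28.4 FPKM (0.99 ± 0.23).

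Several falls of activity genes were deeper than in Sp3 knockdown. Arc stood at 49.2 FPKM in control, 8.07 in HDAC2 knockdown and 23.5 in Sp3 knockdown (log2 difference HDAC2 minus Sp3 -1.99 ± 0.28, adjusted p of 9.38e-11), Egr2 at 15.1, 3.56 and 13 FPKM (-2.32 ± 0.28, 5.17e-14), and Npas4 at 29.4, 4.02 and 16.8 FPKM (-2.51 ± 0.29, 1.07e-15). By this test 13 of 30 factor genes lay below Sp3 knockdown and 1 above, as did 11 and 1 of 41 effectors. The share of all genes passing it in either direction was 14.7%. Fos (28.2 FPKM in Sp3 knockdown, difference -0.25 ± 0.26, adjusted p of 0.638) and Btg2 (12.8 FPKM, -0.24 ± 0.27, 0.659) did not differ beyond the error.

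Some neuropeptide genes fell. Of 27 neuropeptide and granule genes 4 fell and 1 rose. Cartpt, the CART peptide, fell from 2.95 to 0.73 FPKM (-2.33 ± 0.81), Cck, cholecystokinin, from 141 to 68.2 FPKM (-1.36 ± 0.23), Pnoc, nociceptin, from 2.57 to 1.26 FPKM (-1.35 ± 0.39), and Pcsk1, the protease that cleaves peptide precursors, from 26.4 to 12.6 FPKM (-1.38 ± 0.24). Penk, enkephalin, rose from 1.76 to 4.68 FPKM (1.09 ± 0.39). The granule protein gene Vgf measured 304 to 157 FPKM (-1.27 ± 0.52, adjusted p of 0.0696) and somatostatin, Sst, 76 to 77.1 FPKM (-0.29 ± 0.23). In Sp3 knockdown Cck was at 197 FPKM (difference -1.98 ± 0.25, adjusted p of 1.22e-12) and Cartpt at 3.3 FPKM (-2.63 ± 0.90, 0.0279).

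The full palindrome TGACGTCA, which contains the core, is rare, in 3.67% of the 9375 genes, and the windows of 3 genes that fell and hold it are shown, with it in capitals. They were chosen after their values were seen, so their direction is no finding. The lines give the 250 bases before the start site at chr17:26508473-26508722 (minus strand), chr13:75089607-75089856 (plus strand) and chr13:99900684-99900933 (minus strand) of GRCm38.p6.
Dusp1: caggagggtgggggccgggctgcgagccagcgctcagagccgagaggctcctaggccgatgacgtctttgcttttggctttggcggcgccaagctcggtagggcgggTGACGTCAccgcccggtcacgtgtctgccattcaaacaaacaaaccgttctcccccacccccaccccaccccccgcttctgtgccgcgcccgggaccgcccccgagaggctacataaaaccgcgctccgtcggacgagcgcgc
Pcsk1: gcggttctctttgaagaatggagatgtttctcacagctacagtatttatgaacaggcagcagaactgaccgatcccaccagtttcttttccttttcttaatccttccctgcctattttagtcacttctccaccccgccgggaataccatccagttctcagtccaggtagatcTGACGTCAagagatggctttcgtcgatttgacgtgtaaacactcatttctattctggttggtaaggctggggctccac
Cartpt: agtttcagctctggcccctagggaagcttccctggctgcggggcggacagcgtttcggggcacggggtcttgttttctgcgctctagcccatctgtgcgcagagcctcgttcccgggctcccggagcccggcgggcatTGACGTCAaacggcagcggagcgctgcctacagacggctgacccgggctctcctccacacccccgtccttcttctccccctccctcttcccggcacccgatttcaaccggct
Each of these windows holds 1 copy. Of 30 effector genes with a window 5 hold it (16.7%), 1 of them among the 6 that fell and have a window. Over all genes the share was 4.85% of those that fell and 1.96% of those that rose.

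**Figure D4:**
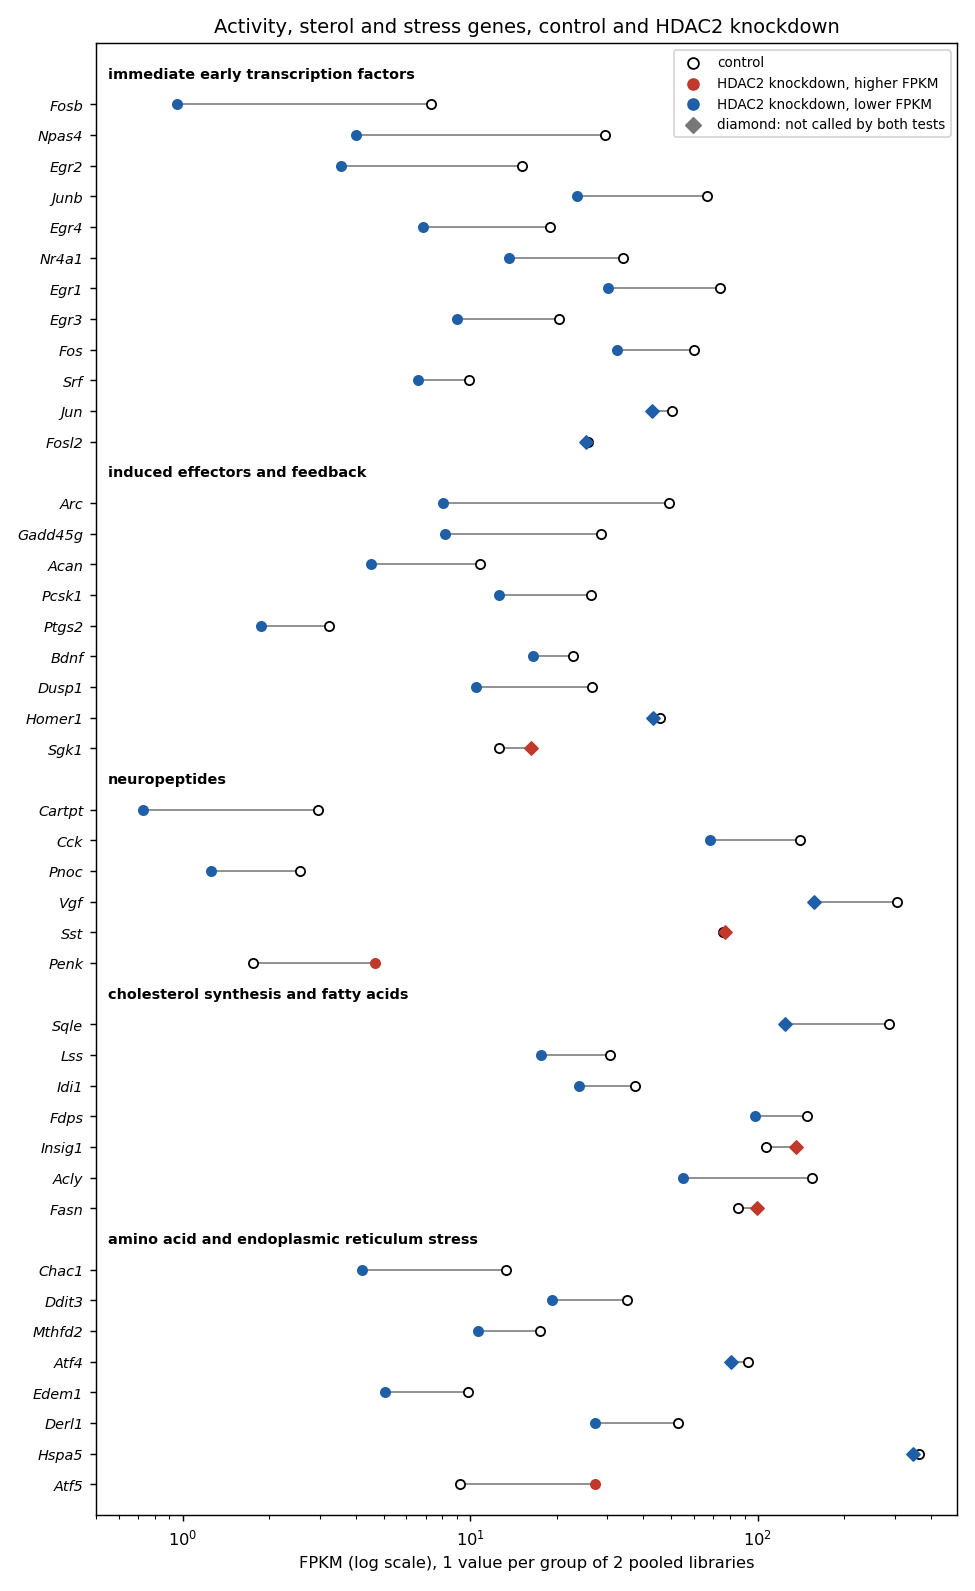
FPKM (log axis) in control (open circles) and HDAC2 knockdown (filled) for 42 genes of activity, neuropeptide, sterol and stress lists, 1 value per group. Diamonds mark genes not called by both tests. Fosb, Npas4 and Arc show the longest shifts to the left among activity genes.

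Some cholesterol synthesis genes fell. The pathway leads from acetyl-CoA through mevalonate and squalene to cholesterol and is switched on as a unit by SREBP-2 when sterols are short. Of 26 tested genes 5 fell, none rose, and 22 had a log2 change below 0 (median -0.64, or -0.33 with the shift kept). Idi1 and Fdps, which build the isoprenoid chain, fell from 37.3 to 23.8 FPKM (-0.97 ± 0.23) and from 148 to 97.6 FPKM (-0.92 ± 0.24), and Ggps1, a branch enzyme, from 24.3 to 14.9 FPKM (-1.02 ± 0.23). Lss, which forms the sterol ring, fell from 30.5 to 17.6 FPKM (-1.11 ± 0.24). Sqle, squalene epoxidase, measured 286 to 125 FPKM (-1.51 ± 0.54, adjusted p of 0.0317, q in the authors' deposited table not under 0.05). Insig1, a feedback protein of the same control, measured 107 to 135 FPKM (0.025 ± 0.38). In Sp3 knockdown 15 of these genes were higher relative to the median gene. The share of all genes higher there is not given here, so this count has no background. By the test of the difference 15 of 26 lay lower in HDAC2 than in Sp3 knockdown. The share of all genes passing that test in either direction was 14.7%. Fdps was at 240.0 FPKM in Sp3 knockdown (difference -1.75 ± 0.27, adjusted p of 7.09e-09).

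Fatty acid and sphingolipid genes changed in both directions. Acly, which supplies acetyl-CoA to both pathways, fell from 155 to 55 FPKM (-1.81 ± 0.22, adjusted p of 9.83e-15), but fatty acid synthase, Fasn, measured 85 to 99 FPKM (-0.096 ± 0.88). Of 25 tested 7 rose, among them Elovl1, which elongates very long chains, from 2.32 to 12.3 FPKM (2.09 ± 0.29), and Lass2, the ceramide synthase of myelin lipids, from 15.3 to 57.1 FPKM (1.58 ± 0.27). The galactolipid enzymes Ugt8a and Gal3st1 named above are in the same group. Npc1, which exports cholesterol from lysosomes, rose from 14.5 to 32.1 FPKM (0.83 ± 0.28).

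Genes of the integrated stress response, the ATF4 program that answers amino acid shortage and endoplasmic reticulum stress, fell in part. Of 41 tested 7 fell and 3 rose. Chac1, a glutathione-degrading ATF4 target, fell from 13.3 to 4.21 FPKM (-1.97 ± 0.29, adjusted p of 5.63e-10), Ddit3, the factor CHOP, from 35 to 19.2 FPKM (-1.18 ± 0.25), and Mthfd2, a mitochondrial folate enzyme, from 17.4 to 10.6 FPKM (-1.03 ± 0.25). Cars and Mars, which charge transfer RNA with cysteine and methionine, fell from 35.4 to 22.9 FPKM (-0.94 ± 0.086) and from 57 to 44.3 FPKM (-0.68 ± 0.082). Atf4 measured 92.8 to 81 FPKM (-0.51 ± 0.29, adjusted p of 0.228) and Asns, asparagine synthetase, 76.8 to 79.9 FPKM (-0.26 ± 0.28). Atf5 rose from 9.2 to 27.2 FPKM (1.25 ± 0.22) and Nupr1, a stress-induced chromatin protein, from 1.82 to 8.74 FPKM (1.95 ± 0.49). The median log2 change of the list was -0.38, or -0.067 with the shift kept, and its centred median in Sp3 knockdown was -0.28. Relative to the median gene, 12 of the 41 were lower and 3 higher in HDAC2 knockdown, against 7.59% and 10.2% of all tested genes. In Sp3 knockdown 19 were lower and 3 higher, but the shares of all genes there are not given here, so these counts have no background. By the test of the difference 5 lay below Sp3 knockdown and 3 above, and 14.7% of all genes passed that test in either direction. Both comparisons use the same control libraries.

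ATF4 binds a composite element whose letters TGATGNAA were searched on both strands, and 2 genes of the list that fell and hold it are shown, with the match in capitals, as it reads on the gene's strand. Atf3, a stress-induced repressor, fell from 4.74 to 2.15 FPKM (-1.45 ± 0.32). The lines give the 250 bases before the start site at chr2:119350992-119351241 (plus strand) and chr1:191183334-191183583 (minus strand) of GRCm38.p6.
Chac1: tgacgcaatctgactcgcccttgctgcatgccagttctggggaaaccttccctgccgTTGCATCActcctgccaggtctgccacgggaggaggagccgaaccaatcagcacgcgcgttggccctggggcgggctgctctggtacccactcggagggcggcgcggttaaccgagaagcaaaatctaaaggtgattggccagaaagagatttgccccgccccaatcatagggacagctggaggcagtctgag
Atf3: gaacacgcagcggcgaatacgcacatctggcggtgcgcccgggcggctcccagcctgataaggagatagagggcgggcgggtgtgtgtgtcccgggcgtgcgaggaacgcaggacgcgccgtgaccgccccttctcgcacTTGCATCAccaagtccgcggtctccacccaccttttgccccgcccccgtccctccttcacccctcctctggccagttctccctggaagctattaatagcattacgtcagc
The element was found in 2.62% of the 9375 genes with a window, in 11 of 33 genes of the stress list (33.3%), and in 2 of the 4 that fell and have a window. The sterol element TCACNCCAC was found in 1.37% of all genes and in 0 of 18 cholesterol synthesis genes with a window.

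In the endoplasmic reticulum 4 of 33 genes fell and 0 rose, with a median of -0.15 that lies on the other side of 0 with the shift kept (0.17). The falls were in genes that remove misfolded proteins: Edem1 from 9.84 to 5.05 FPKM (-1.28 ± 0.24), Derl1 from 52.9 to 27.2 FPKM (-1.28 ± 0.25), Herpud1 from 50.5 to 33.2 FPKM (-0.92 ± 0.25) and Syvn1 from 29 to 20.3 FPKM (-0.83 ± 0.16). Chaperones such as Hspa5, the sensor BiP, at 363 to 346 FPKM (-0.38 ± 0.35) and Hsp90b1 at 272 to 268 FPKM (-0.34 ± 0.66) did not pass. Of 20 heat shock genes 1 rose, Cryab, a small heat shock protein that oligodendrocytes and astrocytes also make, from 1.92 to 11.3 FPKM (2.25 ± 0.36). Of 32 p53 target and apoptosis genes 2 rose, Apaf1 (6.36 to 15.9 FPKM) and Perp (4.54 to 9.66 FPKM), and 2 fell, Btg2 (33.7 to 14.8 FPKM) and Xaf1 (9.35 to 3.51 FPKM), while Cdkn1a measured 15.3 to 15.7 FPKM (-0.28 ± 0.13).

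Genes of synapses and channels changed singly. Of 48 vesicle and release genes 5 rose and 3 fell, of 34 postsynaptic density genes 1 and 2, of 44 synapse organizers 2 and 0, and of 57 potassium and HCN channel genes 6 and 2. In these lists the shares that rose ran from 2.94% to 10.5%, against 10.2% of all genes, and the shares that fell from 0% to 6.25%, against 3.61%. Among receptors and other channels, 4 of 23 glutamate receptor genes (17.4%), 4 of 24 sodium and calcium channel genes (16.7%) and 2 of 20 GABA and glycine receptor genes (10%) rose, and 0 fell. Presynaptic genes that rose included Amph, of endocytosis, from 30.4 to 68.7 FPKM (0.86 ± 0.31), and Synpr, of vesicles, from 7.61 to 20.8 FPKM (1.14 ± 0.19), and the active zone scaffold gene Pclo fell from 26.7 to 20.5 FPKM (-0.69 ± 0.14). Shank3, the postsynaptic scaffold, fell from 35.6 to 17.5 FPKM (-1.34 ± 0.29), and Dlg4, which encodes PSD-95, measured 96.6 to 156 FPKM (0.38 ± 0.39, adjusted p of 0.591). Grm3, a metabotropic receptor also made by astrocytes, rose from 15.4 to 48.9 FPKM (1.35 ± 0.27), as did the GABA receptor genes Gabrb2, from 15.1 to 56.3 FPKM (1.59 ± 0.42), and Gabbr2, from 27.8 to 81 FPKM (1.22 ± 0.38). The pacemaker channel gene Hcn2 rose from 48.3 to 112 FPKM (0.90 ± 0.32), and the potassium channel genes Kcns1 and Kcnn3 fell from 5.57 to 2.26 FPKM (-1.62 ± 0.31) and from 6.56 to 3.97 FPKM (-1.04 ± 0.24).

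Plasticity genes of earlier work on HDAC2 in brain were looked at as a list. Of 23 tested 5 fell (Arc, Bdnf, Egr1, Fos and Shank3) and none rose, with a median log2 change of -0.40, or -0.084 with the shift kept. Arc, Bdnf, Egr1 and Fos were already given among the activity genes above, so this list is not separate from those. The glutamate receptor genes Gria2 at 302 to 365 FPKM (-0.044 ± 0.53) and Grin2b at 90.2 to 79.8 FPKM (-0.49 ± 0.64), Cdk5, a kinase of synapses, at 27.4 to 38.8 FPKM (0.19 ± 0.26) and Syn2, a vesicle protein, at 85.7 to 143 FPKM (0.42 ± 0.39) did not pass. Gria1 failed in the authors' test and measured 126 to 129.9 FPKM.

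Some growth factor and guidance genes rose. Of 40 growth factor genes 9 rose and 2 fell. Ptn, a heparin binding growth factor of glia, rose from 84.2 to 259.8 FPKM (1.31 ± 0.43), and Igfbp3 and Igfbp5, which bind insulin-like growth factors, from 47.3 to 155 FPKM (1.4 ± 0.36) and from 27.3 to 82.1 FPKM (1.28 ± 0.44). Fgfr1 fell from 38.1 to 23.8 FPKM (-1.0 ± 0.066). Of 48 axon guidance genes 10 rose and 1 fell, with the netrin receptor genes Unc5a from 5.96 to 31.3 FPKM (2.08 ± 0.28) and Dcc from 9.97 to 27.6 FPKM (1.15 ± 0.33), and the plexin genes Plxnd1 from 14.7 to 64.6 FPKM (1.82 ± 0.44) and Plxnb3, made by oligodendrocytes, from 0.238 to 3.37 FPKM (3.51 ± 0.42). Sema6d could not be tested and measured 22.4 to 57.4 FPKM. In calcium and cyclic AMP signalling the single fall of 52 was Prkacb, which encodes one catalytic subunit of cyclic AMP-dependent kinase, from 116 to 50.9 FPKM (-1.51 ± 0.12), and 4 rose, among them Camk1, a calcium-dependent kinase, from 15.4 to 37.1 FPKM (0.95 ± 0.24).

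Few oxidative phosphorylation and proteasome genes changed. Of 74 oxidative phosphorylation genes 0 rose and 1 fell, Ndufa3, a complex I subunit, from 184 to 116 FPKM (-0.98 ± 0.22), and of 31 proteasome genes none passed. Of 44 lysosome and autophagy genes 7 rose (15.9%, against 10.2% of all tested genes) and 0 fell. Ctsz, a cathepsin, went from 4.69 to 20.8 FPKM (1.84 ± 0.27) and Gusb, a glucuronidase, from 2.04 to 8.47 FPKM (1.74 ± 0.30). Among interferon genes 6 of 20 tested rose and 1 fell. The list's median was -0.11, or 0.21 with the shift kept, with 10 members above 0 and 10 below. Those that rose include Ifitm3 (0.694 to 7.09 FPKM) and Ifitm2 (1.57 to 12.5 FPKM), which block virus entry. The interferon-induced genes Isg15, Irf7, Mx1 and Oasl2 were too low for the authors' test. Of 17 tested antigen presentation genes 3 rose and 3 fell. B2m, the light chain of class I molecules, rose from 9.53 to 53.5 FPKM (2.17 ± 0.26). The falls were Tapbpl, H2-T23 and H2-T24, the last a class I relative that went from 21.1 to 5.83 FPKM (-2.17 ± 0.25) and stood at 3.6 FPKM in Sp3 knockdown.

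The 15 largest rises among genes with at least 5 FPKM in both groups were led by Sepp1, Gfap and Lgals1. Sepp1, a secreted selenium carrier, rose from 6.66 to 72.4 FPKM (log2 change 3.13 ± 0.16, adjusted p of 1.44e-85), 8.73-fold relative to the median gene, and Lgals1, a galectin of astrocytes, from 7.83 to 68 FPKM (2.8 ± 0.28). Car2, carbonic anhydrase of oligodendrocytes and astrocytes, rose from 9.19 to 63.4 FPKM (2.47 ± 0.25), Cyb5r3, a cytochrome reductase, from 5.97 to 39.1 FPKM (2.39 ± 0.27), Lynx1, a brake on nicotinic receptors, from 6.74 to 41.3 FPKM (2.3 ± 0.29), A2m, a protease trap, from 5.21 to 28.2 FPKM (2.12 ± 0.26), and Smpdl3a, a phosphodiesterase, from 7.58 to 39.1 FPKM (2.05 ± 0.24). Aqp4, Tnc, B2m and Unc5a, given above, complete the protein genes with Rpl26, a ribosomal protein with near-identical copies elsewhere, whose 43.8 to 298 FPKM are uncertain. Unc5a stood at 21.6 FPKM in Sp3 knockdown and did not differ from it beyond the error (difference 0.088 ± 0.30, adjusted p of 0.912). Sepp1 (11.9 FPKM in Sp3 knockdown, 2.16 ± 0.21, 3.51e-21) and Lgals1 (6.9 FPKM, 2.85 ± 0.36, 7.92e-13) were above it.

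The 15 largest falls, apart from Arc, were genes that were low in Sp3 knockdown too. Vmn2r-ps129, a receptor pseudogene, measured 224 FPKM in control, 25.2 in HDAC2 and 14 in Sp3 knockdown. Nanog, a pluripotency factor not known from neurons and with near-identical pseudogenes, measured 184, 26.2 and 17.9 FPKM, and Tapbpl, of antigen presentation, 84.5, 13.7 and 9.46 FPKM. H2-T23, a nonclassical class I molecule, measured 183, 30.3 and 19.9 FPKM, Cxcr2, a chemokine receptor, 75.6, 14.4 and 11.2, and Churc1, a zinc binding protein, 412, 92.7 and 62.8. The others were Omd, Phkg1, Ripply3, Pbld1, Ttf1, Lcmt2, Chrna1 and Dclre1c. For none of these 14 did the knockdowns differ by the test of the difference, with adjusted p from 0.335 (Omd) to 0.984 (Pbld1). Both comparisons use the same control libraries, so an effect of both knockdowns and a high level in the control libraries alone cannot be told apart.

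**Figure D5:**
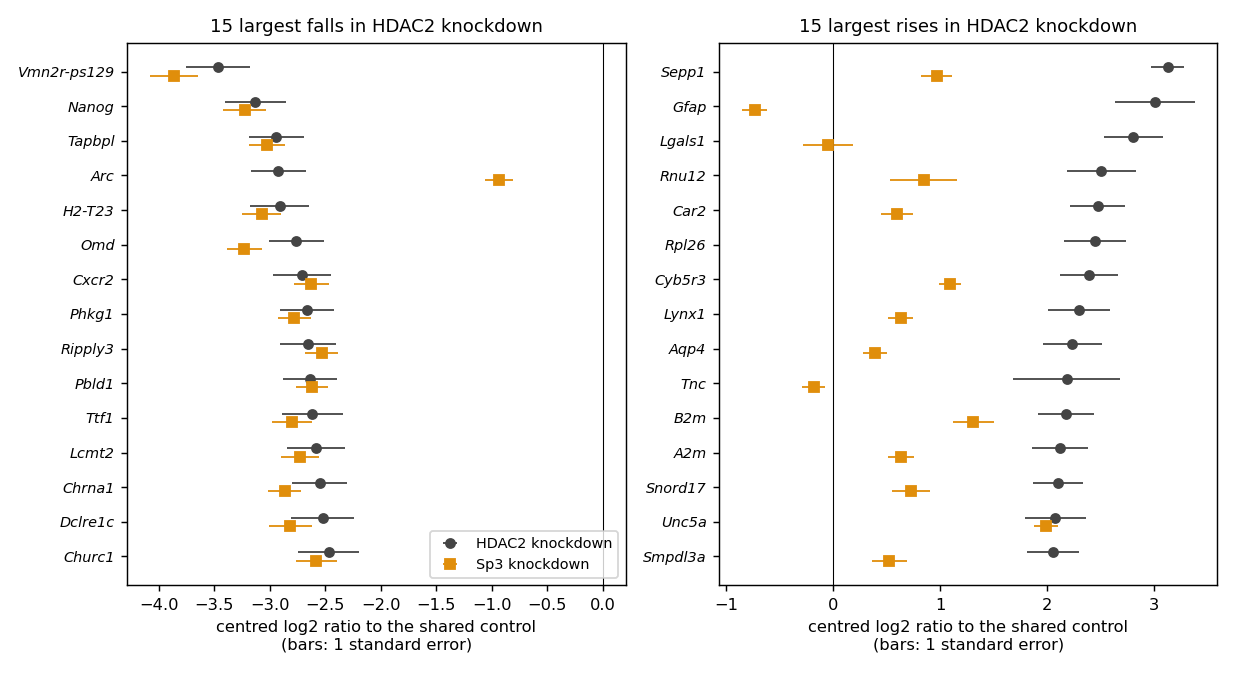
Log2 change (centred ratio, bars 1 standard error) of the 15 largest falls (left) and 15 largest rises (right) of the HDAC2 knockdown, with the same genes in Sp3 knockdown as squares. Among falls only Arc differs between the knockdowns, and among rises most genes are lower in Sp3 knockdown. Rpl26 in Sp3 knockdown is not drawn.

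Small noncoding RNAs made the largest rises in FPKM. Scarna2 and Scarna10, guide RNAs of Cajal bodies, rose from 3862 to 8482 FPKM (0.82 ± 0.24) and from 976 to 2516 FPKM (1.05 ± 0.22), and Snord116, the small nucleolar RNA cluster of the Prader-Willi region, from 1051 to 3415 FPKM (1.38 ± 0.11). Snord47, a guide of ribosomal RNA methylation, rose from 474 to 1769 FPKM (1.58 ± 0.27). As classes, grouped by name after their values were seen and so without a test, 15 of 50 tested Snord genes rose (median log2 change 0.84), 10 of 29 Snora genes (0.80) and 6 of 8 Scarna genes (1.07), and none fell. Of 11 tested Snhg genes, host transcripts of small nucleolar RNAs, 0 rose and 1 fell (median -0.44). Fragment size in the libraries was not examined, and its part in these values was not tested. By FPKM the largest falls beyond those above were Acly, Arl6ip1, an endoplasmic reticulum protein (247 to 106 FPKM, -1.53 ± 0.43), and Mir1906-1 (226 to 102 FPKM, -1.46 ± 0.37).

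The GC box GGGCGG, the sequence bound by Sp family factors, lay on either strand in the promoter window of 69.7% of the 9375 genes, of 74.2% of the 969 genes that rose and of 66.4% of the 330 that fell. On chromosome X 32 of 476 tested genes fell (6.72%, against 3.61% over all chromosomes) and 37 rose (7.77%). These shares are descriptions with no test. For 81 genes 1 group is listed at 0 and no fold exists. Of these the authors' deposited table calls 4, namely Fa2h, higher, and Ppef2 (0.865 FPKM in control), Mir1197 (7.59) and Mir132 (47), a microRNA induced by CREB, each listed at 0 in HDAC2 knockdown. Mir132 is also listed at 0 in Sp3 knockdown.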

How the data were processed

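RNA of the cultures was sequenced by the submitters with a TruSeq kit, per the labels' protocols, and TopHat, Bowtie, Cuffdiff and mm9 are named in the submitters' processing notes, with no versions. The deposited tables give 1 FPKM value per group, which the authors made from 2 libraries, and beside it the log2 fold change, the statistic of their test and its p-value and q-value. No counts or library values were used, so depth and its precision are unknown. Genes whose deposited status was not OK were left out of tests (9666), as were 81 with a fold against 0 and 7 without an error. Columns of per-sample values that were not used numbered 0.

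The standard error of each log2 ratio was the authors' log2 ratio divided by their test statistic. Ratios were centred on the median of genes with 1 FPKM or more in either group (0.32 for HDAC2, -0.13 for Sp3), tested against a normal distribution, 2-sided, and adjusted by Benjamini-Hochberg over 13481 genes. The difference between knockdowns was tested with both standard errors combined, which does not take account of the control they share. Calculations used Python 3.11.15, numpy 2.4.6, pandas 2.3.3, scipy 1.17.1 and matplotlib 3.10.9, and were tested on simulated data. Promoter windows came from RefSeq (GRCm38.p6), matched by symbol for 9375 tested genes. The genes and the 50 gene lists were chosen with earlier results of these data known. Named were Hdac2 and its class I relatives, the 15 largest rises and falls with 5 FPKM or more in both groups, the 8 largest by FPKM, and for each list the 6 members with the smallest p and the defining cell type markers. Other members named were added after their values were seen. Other centrings, filters, thresholds and a t distribution were tried as alternatives. Some genes are not reported here.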

Additional observations from a re-analysis of the deposited data

Results flagged for a closer look

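Of the genes named in the report, 29 passed both tests in opposite directions in the HDAC2 and the Sp3 knockdown, 22 of them higher and 7 lower after HDAC2 knockdown, and the difference itself passed its test for each. Over all genes the counts were 163 and 31. Among genes called in both knockdowns, the same direction was more frequent, but both ratios divide by the same control values, which alone favours a shared direction. Of 1263 genes that rose and had both errors, 527 were also higher in Sp3 knockdown by the centred test, and 163 were lower. Of 485 such genes that fell, 267 were also lower in Sp3 knockdown by the centred test, and 55 were higher. The shares of all genes called in Sp3 knockdown are not given here, so these counts have no background and are descriptions only. Values in brackets are the log2 change in HDAC2 and in Sp3 knockdown and their difference. Both knockdowns were set against the same control libraries, and each group is 1 value from 2 libraries. Among oligodendrocyte lineage genes these were Bcas1 (2.6 and -1.1, difference 3.7), C1ql1 (2.23 and -1.23, difference 3.46), Matn4 (1.88 and -1.36, difference 3.23), Ugt8a (1.73 and -1.08, difference 2.81), Sox10 (1.29 and -1.33, difference 2.63), Cnp (1.42 and -1.14, difference 2.56), Mbp (1.45 and -0.58, difference 2.03), Pdgfra (0.86 and -0.93, difference 1.79) and Sox6 (0.86 and -0.79, difference 1.64). The adjusted p of the difference ranged from 2.7e-28 (Matn4) to 1.94e-06 (Pdgfra) among these 9. Astrocyte genes in this set were Gfap (3.01 and -0.73, difference 3.74), S100b (2.11 and -0.82, difference 2.93), Gja1 (1.42 and -0.53, difference 1.95) and Vcam1 (1.5 and -0.33, difference 1.84). Transcriptional regulators of progenitors were Id3 (1.13 and -0.96, difference 2.1), Id4 (1.17 and -0.84, difference 2.02) and Sox2 (1.06 and -0.73, difference 1.79). Matrix and guidance genes were Mmp14 (1.5 and -0.68, difference 2.19), Fn1 (1.24 and -0.30, difference 1.54) and Plxnd1 (1.82 and -0.50, difference 2.32). The layer factor gene and the cholesterol exporter gene were Etv1 (0.98 and -0.68, difference 1.66) and Npc1 (0.83 and -0.48, difference 1.3). Sp3, the gene targeted by the hairpins of the second knockdown, stood at 0.47 and -1.28 (difference 1.75).

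Lower after HDAC2 and higher after Sp3 knockdown were the activity and peptide genes Ptgs2 (-1.1 and 0.93, difference -2.04), Bdnf (-0.78 and 0.65, difference -1.43), Pnoc (-1.35 and 0.98, difference -2.33) and Cck (-1.36 and 0.62, difference -1.98), with an adjusted p of the difference between 1.02e-32 (Bdnf) and 6.96e-06 (Pnoc). The others were Fdps (-0.92 and 0.83, difference -1.75), Elavl4 (-1.06 and 0.43, difference -1.49) and Pclo (-0.69 and 0.30, difference -0.99).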

How the results depend on the processing

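No paired analysis was possible because the deposited tables hold 1 value per group, and for the same reason no library could be left out. The 1380 higher and 1023 lower genes became 3342 and 489 by the q-values of the authors' deposited table, which keep the shift of the median gene, and 686 and 413 when a log2 change of at least 1 was required. With 5 FPKM or more in both groups 697 higher genes were left (and 726 lower). With a t distribution of 2 degrees of freedom in place of the normal, 0 genes passed in either direction (smallest adjusted p 0.660), against 501 higher and 372 lower at an unadjusted p under 0.05. Calls by both tests, an alternative chosen after seeing the data, left 486 lower genes and the same 1380 higher. Centring on the upper quartile (shift 0.31) gave 1388 and 1020, and centring on genes of 10 FPKM or more (shift 0.27) gave 1557 and 900. An adjusted p under 0.01 gave 938 and 698. The log2 change of Hdac2 was -2.32, -2.0 without centring and -2.2 with 1 FPKM added. The 1955 genes that differed between the knockdowns became 3815 without centring and 1250 with 5 FPKM or more in all groups, both chosen after seeing the data. Of the genes named in the report and tested, 215 kept their side of the threshold by the authors' q-values, 5 passed only there and 6 only after centring, and none reversed its direction among calls. With 1 FPKM added to both groups, 186 of these genes kept their log2 change within 1 standard error, and 40 moved further. Among the 40 were Thbs2 (4.37 to 1.75), Plxnb3 (3.51 to 1.54), Osmr (3.38 to 1.59), C4b (2.99 to 1.62) and Cldn11 (4.42 to 3.16). Depth is unknown, and errors are wide under 1 FPKM and at 500 FPKM or more.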
